A study of Mus musculus with 27 samples.

Results

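Loss of Ythdf2 was set against loss of its 2 paralogues in mouse embryonic stem cells, in a contrast that gives wild type no weight. The comparison used 6 of the 27 libraries of the series, 2 from each of the Ythdf1-/-, Ythdf2-/- and Ythdf3-/- lines, and the quantity was the Ythdf2 knockout minus the mean of the Ythdf1 and Ythdf3 knockouts. These 3 groups are part of a stem cell experiment with 12 libraries in 6 groups of 2, the others being wild type, cells lacking Ythdf1, Ythdf2 and Ythdf3 together (triple knockout) and cells lacking Mettl3. All of them share the KH2 background, a C57BL/6 x 129/Sv hybrid, and were grown in serum with LIF, a cytokine that holds stem cells undifferentiated. The series also holds oocytes and spermatids, which were not used here. The labels do not say whether libraries A and B of a genotype came from separate clones or cultures, how many clones each genotype stands for, or which part of each gene was removed.

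The 3 readers are cytoplasmic proteins whose YTH domain binds N6-methyladenosine (m6A), the methyl mark that the METTL3 complex places on adenosines of mRNA. YTHDF2 is best known for bringing marked transcripts to the CCR4-NOT deadenylase, which shortens the poly(A) tail and starts decay. Because the readers are alike in sequence and bind the same mark, the series asks how far 1 can stand in for another, and a direct contrast of the knockouts shows which transcripts differ according to which reader was lost.

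Poly(A) RNA gave 612598 to 923145 counts per library in the 6 knockouts, so a gene at 10 CPM (counts scaled by TMM library size) rests on fewer than 10 counts in a library. Libraries of the same genotype differed by less than counting error in 3 of 3 pairs, where the chi-square divided by the number of genes was 0.730 to 0.808, and so did 7 of 12 pairs of different genotypes. For many genes the p-values therefore reflect little beyond counting error, and the libraries may be technical replicates. They may not show how far separate clones or cultures would vary. The 8 pluripotency markers Pou5f1, Nanog, Sox2, Zfp42, Esrrb, Klf4, Tdh and Dppa5a were all present, with summed levels of 3942 to 4341 CPM. Markers of feeder fibroblasts summed to 119 to 144 CPM, of primitive endoderm to 19.9 to 36.2 CPM, of mesoderm to 80.9 to 98.9 CPM and of trophoblast to 104 to 176 CPM. Trophoblast and primitive endoderm sums were highest in the Ythdf2 knockout pair.

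Ythdf2 itself stood at 18.1 and 10.5 CPM in its own knockout, at 28.9 and 35.0 in the Ythdf1 knockout and at 36.8 and 37.2 in the Ythdf3 knockout. Both Ythdf2 knockout libraries lay below the other 4, a log2 difference of -1.28 ± 0.25 (standard error, 2 against 4 libraries, edgeR quasi-likelihood adjusted p = 0.00366). That call was lost with DESeq2 and without Ythdf2 knockout library B. Wild type, at 26.1 and 24.96 CPM, lay above the Ythdf2 knockout but below the Ythdf1 and Ythdf3 knockouts. The triple knockout, which also lacks Ythdf2, lay above wild type, at 35.9 and 30.1 CPM. The Ythdf2 transcript was therefore a weak check of the label. Ythdf1 was at 174 and 177 CPM in the Ythdf1 knockout and at 175 and 180 in the Ythdf2 knockout, so its transcript gave no check of the label. Ythdf3 likewise stood at 82.0 and 71.8 CPM in its own knockout against 78.9 and 72.2 in the Ythdf2 knockout. Neither passed the test in the contrast (0.12 ± 0.08 and 0.05 ± 0.20). Among the 10 tested m6A readers and erasers Ythdf2 was the lone call, and the writer complex (7 genes), CCR4-NOT (15) and decapping (12) lists held 0 calls, Mettl3 among them (-0.06 ± 0.10).

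Of 11951 tested genes 121 (1.01%) passed an adjusted p under 0.05 (edgeR quasi-likelihood with Benjamini-Hochberg adjustment), hereafter called. In the Ythdf2 knockout 51 were higher (0.427% of those tested) and 70 lower (0.586%), and 9 and 49 of them passed 2-fold. Against the Ythdf1 knockout alone 42 genes were higher (0.351%) and 88 lower (0.736%), and against the Ythdf3 knockout alone 26 (0.218%) and 34 (0.284%). These comparisons share the Ythdf2 libraries. Between the Ythdf1 and Ythdf3 knockouts 27 genes were higher in the former (0.226%) and 11 lower (0.092%). A stricter set was called the same way against each paralogue, 12 genes higher (0.1% of tested genes) and 23 lower (0.192%).

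Higher genes were led by Mest, and lower ones by genes of the 2-cell embryo. In 50 of the 51 higher genes both Ythdf2 knockout libraries lay above the other 4, as they did in 9.12% of all tested genes, and in 68 of the 70 lower genes they lay below, as in 9.61% of all. Wild type, which the contrast left out, was nearer to the Ythdf2 knockout than to the mean of the other 2 for 55 of the 70 lower genes and for 22 of the 51 higher ones, as it was for 6023 of all 11951 tested genes. Among the 70 lower genes 19 carry predicted or clone names, as do 0 of the 51 higher ones and 655 of all 11951. Leaving out Ythdf2 knockout library B cut the higher calls to 12 and the lower to 29, and leaving out A gave 27 and 41. DESeq2, with a median dispersion of 0.0259 against 9.77e-05 in edgeR, called 3 higher and 17 lower, all 20 among the 121.

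**Figure D1:**
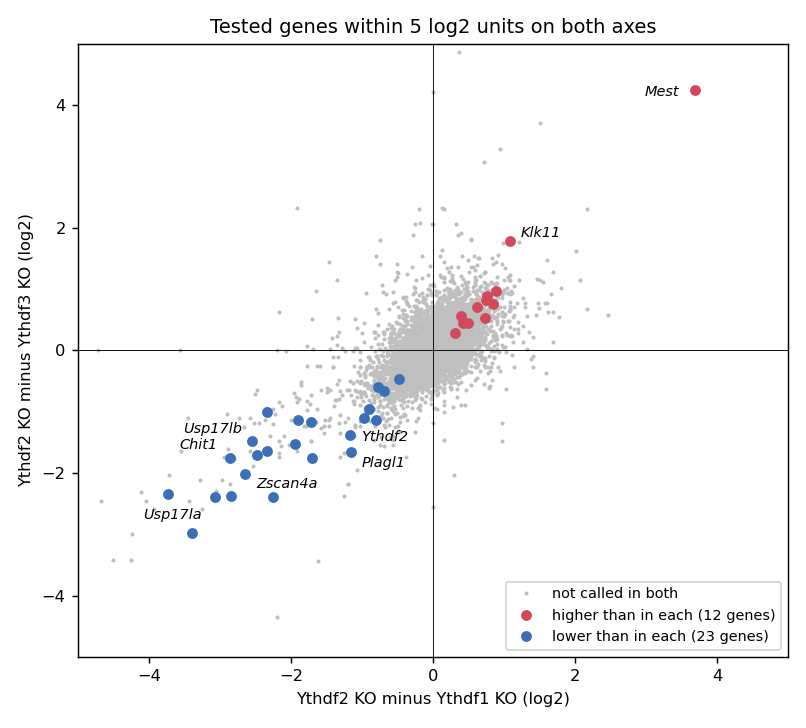
Each point is a tested gene, placed by its log2 difference of the Ythdf2 from the Ythdf1 knockout (horizontal) and from the Ythdf3 knockout (vertical), with 2 genes beyond the axes left out. The 12 genes higher than in each knockout are red, with Mest alone at the far upper right, and the 23 lower ones are blue.

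Imprinted genes, which are expressed from the copy of 1 parent according to DNA methylation set in the germ line, held 5 of the 35 genes called against both paralogues. Of 28 tested, 3 were higher (Mest, Meg3 and Rian) and 2 lower (Plagl1 and Grb10), and all 5 were called in each pairwise comparison. Over all tested genes 0.427% were higher and 0.586% lower, and 0.1% and 0.192% in both pairwise comparisons. DESeq2 left 1 higher and 1 lower call, Mest and Plagl1. The list's median was 0.11 against -0.00 over all tested genes, with 17 differences positive and 11 negative. Of the 28, 23 matched a promoter entry in RefSeq.

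Mest, which encodes a hydrolase-fold protein and is transcribed from the father's copy (chromosome 6, 30723547 to 30748465, plus strand, GRCm38), showed the widest gap among the genes named. The 250 bases before 1 of its annotated starts, at chr6:30737800-30738049 on the plus strand (RefSeq, GRCm38.p6), are shown because this gene carries the result.
Mest: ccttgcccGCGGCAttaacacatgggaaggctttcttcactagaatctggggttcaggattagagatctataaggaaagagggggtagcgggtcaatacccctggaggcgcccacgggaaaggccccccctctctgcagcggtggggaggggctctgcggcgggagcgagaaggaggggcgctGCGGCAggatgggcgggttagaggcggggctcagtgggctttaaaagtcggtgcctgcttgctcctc
Capitals mark the hexamer TGCCGC, read on either strand, the core letters that the imprint-protecting protein ZFP57 recognises when methylated. It occurs 2 times here, among 14 CG pairs, and 8.68% of 32851 RefSeq windows of the same length hold it. The Plagl1 window at chr10:13090582-13090831 and the Meg3 window at chr12:109540746-109540995 hold it 1 time each. A further Mest window, which begins at 30737803 and overlaps the one shown, also holds 2. The windows of Rian and Grb10, the Mest window at 30733256 and the other Meg3 window hold 0. DNA methylation was not measured in these samples.

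Mest stood at 71.1 and 74.5 CPM in the Ythdf2 knockout. It was at 4.44 and 6.56 CPM in the Ythdf1 knockout and at 1.67 and 5.32 in the Ythdf3 knockout. The groups were far apart, with a log2 difference of 3.97 ± 0.25, 15.6-fold (edgeR adjusted p = 1.42e-20). Wild type lay with the low libraries, at 2.70 and 2.67 CPM. Among libraries outside the contrast, the Mettl3 knockout was as high as the Ythdf2 knockout (75.6 and 70.3 CPM) and the triple knockout lay between (37.4 and 41.1 CPM). Mest thus split the stem cell lines into 3 with low and 3 with high levels. Copg2, which overlaps the end of Mest on the opposite strand, differed by 0.61 ± 0.20 and was not called, and whether the counting used strand is not given in the sources used here.

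Meg3 and Rian are noncoding RNAs of the Dlk1-Dio3 cluster on chromosome 12, made from the maternal copy. Meg3 was at 208 and 215 CPM in the Ythdf2 knockout, 120 and 136 in the Ythdf1 knockout and 134 and 158 in the Ythdf3 knockout (0.63 ± 0.09, edgeR adjusted p = 2.12e-06). Rian was at 103 and 92.0 CPM, against 61.1 and 48.1, and 48.5 and 65.1 (0.79 ± 0.14). In both genes the Ythdf2 pair lay above the other 4 libraries, and wild type lay between (161 and 185 CPM for Meg3, 74.8 and 90.9 for Rian). For Meg3 the triple knockout (85.8 and 105 CPM) and the Mettl3 knockout (47.6 and 56.2 CPM) lay below all of these. Mirg, another transcript of the cluster, leaned the same way (0.67 ± 0.20) and was not called. The Rian call was lost without Ythdf2 knockout library A (adjusted p = 0.0678).

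Plagl1 encodes a zinc-finger factor that restrains growth, and Grb10 an adaptor that dampens insulin and growth factor signalling. Plagl1 was at 36.2 and 39.6 CPM in the Ythdf2 knockout, against 89.99 and 79.8 in the Ythdf1 knockout and 149 and 98.4 in the Ythdf3 knockout (-1.41 ± 0.15, edgeR adjusted p = 7.18e-10). Wild type, at 92.8 and 96.3 CPM, lay with the other knockouts, and the Mettl3 knockout was as low as the Ythdf2 knockout (36.1 and 24.6 CPM). The triple knockout, which also lacks Ythdf2, was not low for Plagl1, at 112 and 110 CPM. Grb10 was at 38.8 and 34.9 CPM, against 64.4 and 73.2, and 60.2 and 81.1 (-0.93 ± 0.16) and the other 10 stem cell libraries all lay above the Ythdf2 pair. The Grb10 call was lost without Ythdf2 knockout library B (adjusted p = 0.153). Genes that write or keep imprints, such as Dnmt1, Uhrf1, Zfp57 and Trim28, gave 0 calls among 15 tested.

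**Figure D2:**
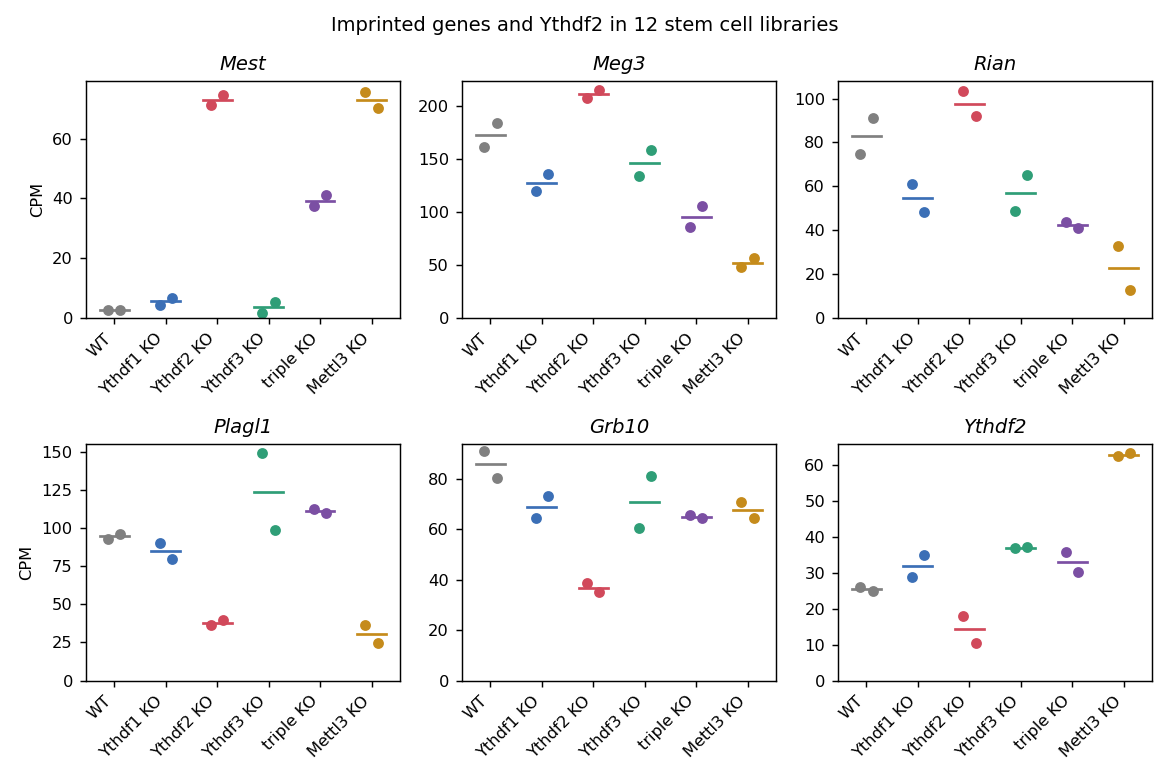
Levels in CPM of 5 imprinted genes and Ythdf2, with a point for each of 12 stem cell libraries and a bar at the mean of each genotype's pair. Mest is high in the Ythdf2, triple and Mettl3 knockouts (KO), whereas Grb10 and Ythdf2 are lowest in the Ythdf2 knockout.

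Genes of the 2-cell embryo, the stage at which the mouse genome is first switched on, were lower in the Ythdf2 knockout than in the other single knockouts. Stem cell cultures hold a few cells that express them, and in bulk RNA fewer such cells and less RNA per cell cannot be told apart. Many belong to families of near-identical copies, so the share of reads given to each copy is uncertain. Windows of 100 bases that end 66 to 145 bases before RefSeq starts of Usp17l, a family of deubiquitinases, show how alike 4 copies on chromosome 7 are there. Usp17le is not shown. The windows lie outside the RefSeq transcripts, so they do not measure how well reads of the copies can be told apart. Capitals mark bases that all 4 share.
Usp17la: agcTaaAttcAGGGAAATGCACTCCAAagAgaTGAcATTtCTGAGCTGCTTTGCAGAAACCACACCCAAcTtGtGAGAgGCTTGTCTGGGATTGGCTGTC
Usp17lb: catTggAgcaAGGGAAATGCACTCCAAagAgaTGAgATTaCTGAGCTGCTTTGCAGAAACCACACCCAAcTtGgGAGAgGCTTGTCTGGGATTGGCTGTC
Usp17lc: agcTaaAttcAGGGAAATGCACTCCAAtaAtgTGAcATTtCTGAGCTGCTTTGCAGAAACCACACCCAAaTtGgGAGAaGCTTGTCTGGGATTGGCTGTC
Usp17ld: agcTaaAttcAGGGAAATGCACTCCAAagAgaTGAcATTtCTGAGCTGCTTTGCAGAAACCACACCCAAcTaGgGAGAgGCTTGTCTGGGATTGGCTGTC
They lie at chr7:104856835-104856934 (plus strand), chr7:104842650-104842749 (minus), chr7:103416473-103416572 (plus) and chr7:103252651-103252750 (minus) in RefSeq on GRCm38.p6. Of 100 aligned bases 82 are the same in all, and pairs of copies match at 84.0% to 98.0%.

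Summing the listed copies removes the doubt over the split among them, but not over reads shared with copies that are not listed. The 5 Usp17l genes together stood at 106 and 89.6 CPM in the Ythdf2 knockout, at 505 and 509 in the Ythdf1 knockout and at 226 and 209 in the Ythdf3 knockout. The 5 Zscan4 genes, zinc-finger proteins tied to telomere upkeep, summed to 49.1 and 48.9 CPM, against 183 and 206, and 137 and 126. The 2 Tcstv genes summed to 10.3 and 18.6 CPM, against 88.9 and 121, and 33.5 and 35.9. In each family the order was Ythdf2 lowest, Ythdf3 between and Ythdf1 highest, with no overlap between genotypes. Wild type lay below all 3, at 51.3 and 42.8 CPM for Usp17l and 31.5 and 19.6 for Zscan4, and the triple knockout lay above all 3 for Usp17l (909 and 921 CPM) and Zscan4 (455 and 439). For Tcstv the triple knockout, at 109 and 110 CPM, lay between the Ythdf1 knockout libraries.

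Gene by gene, 12 of the 15 tested members of repeated families were lower (0.586% of all tested genes were), 6 of them against each paralogue. All 15 differences were negative, with a median of -1.74, and the list was chosen with the rise of these genes in some knockouts known. Usp17la stood at 3.88 and 3.49 CPM, against 42.2 and 59.0 in the Ythdf1 knockout and 16.7 and 21.3 in the Ythdf3 knockout (-3.04 ± 0.39, edgeR adjusted p = 5.18e-08). Usp17lb (-2.01 ± 0.19), Usp17le (-1.68 ± 0.16), Zscan4a (-2.33 ± 0.30), Zscan4d (-1.74 ± 0.24) and Pramef25, of an oocyte and embryo family (-2.62 ± 0.39), were the other 5 called against each. Usp17lc (-1.39 ± 0.17), Usp17ld (-1.65 ± 0.27) and Tcstv1 (-1.69 ± 0.26) were called in the contrast and against the Ythdf1 knockout, not against the Ythdf3 knockout. The count of 12 became 9 without Ythdf2 knockout library B, 11 without A and 7 with DESeq2.

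The 15 tested 2-cell genes with little repetition held 5 lower calls, where 0.586% of all tested genes were lower. None of the 5 was called against the Ythdf3 knockout alone, and all 15 differences were negative (median -1.23). Arg2, a mitochondrial arginase, was at 12.9 and 15.1 CPM, against 44.4 and 51.4 in the Ythdf1 knockout and 35.1 and 30.6 in the Ythdf3 knockout (-1.48 ± 0.24, edgeR adjusted p = 0.000167). The membrane gene Tmem92 (-1.46 ± 0.24), Spz1, a spermatogenic basic helix-loop-helix factor (-2.70 ± 0.53), Tdpoz3, of a TRAF and BTB domain family (-2.55 ± 0.57), and Nelfa, a subunit of the elongation pausing complex (-0.42 ± 0.09), were the rest. Their count fell to 1 without Ythdf2 knockout library A, 3 without Ythdf3 knockout library B and 0 with DESeq2. In all 5 the mean of the Ythdf2 knockout lay nearer to wild type than that of the Ythdf1 knockout did.

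**Figure D3:**
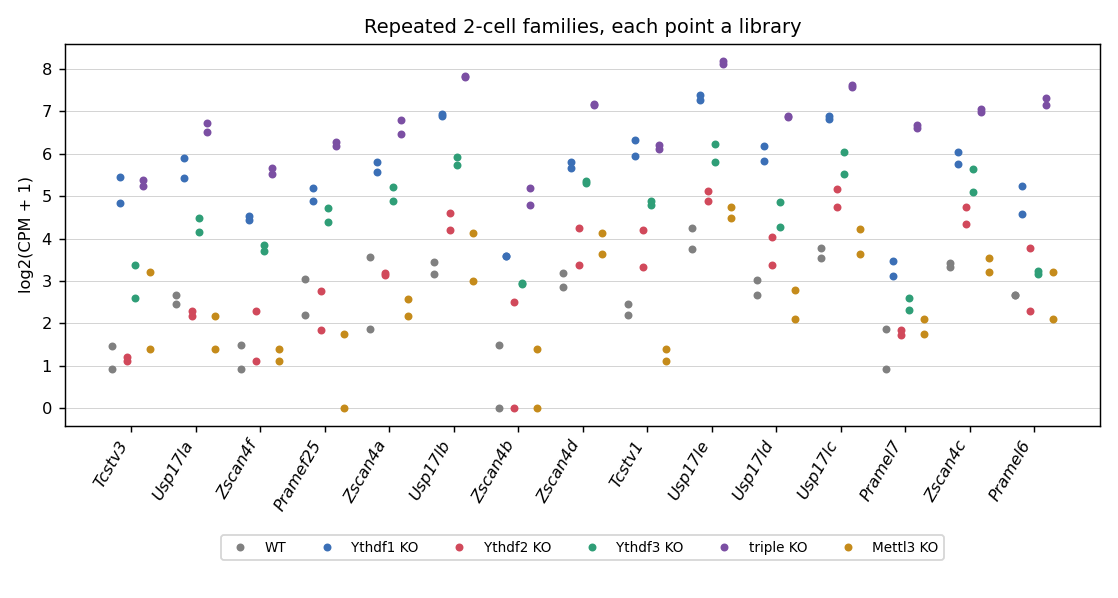
Levels as log2(CPM + 1) of the 15 tested genes of repeated 2-cell families, with 1 point per library and genes ordered by their difference. The Ythdf2 knockout (red) lies below the Ythdf1 knockout (blue) in every gene, and the triple knockout has the highest mean in each gene.

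Chit1, a chitinase gene, followed the same order, at 6.46 and 8.15 CPM in the Ythdf2 knockout, 52.2 and 56.8 in the Ythdf1 knockout and 25.1 and 25.3 in the Ythdf3 knockout (-2.31 ± 0.30, edgeR adjusted p = 1.36e-07). Germline genes held 2 lower calls among 17 tested, where 0.586% of all tested genes were lower. Hormad1, a protein of the meiotic chromosome axis, was at 56.9 and 51.2 CPM, against 97.8 and 90.7, and 126 and 113 (-0.97 ± 0.13), below all other single-knockout libraries. Dazl, a germ-cell translation factor, was at 86.6 and 79.1 CPM, against 136 and 119, and 119 and 130 (-0.61 ± 0.11). Summed 2-cell markers, all of them members of the lists above, repeat those values and are not further evidence. They stood at 78.9 and 81.5 CPM in the Ythdf2 knockout, 337 and 388 in the Ythdf1 knockout and 184 and 178 in the Ythdf3 knockout. Wild type (34.2 and 33.0 CPM) and the Mettl3 knockout (44.3 and 52.7 CPM) lay lower still. Unlike those sums, Hormad1 stood higher in the Ythdf3 than in the Ythdf1 knockout libraries, and Dazl overlapped between them. The part of 2-cell-like cells in the germline differences was not tested. The Dazl call was lost with DESeq2 and without Ythdf2 knockout library B.

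Outside those groups, 4 further genes serve as examples of lower ones, which made up 0.586% of all tested genes. Myh9, the heavy chain of nonmuscle myosin, was at 118 and 140 CPM, against 238 and 207 in the Ythdf1 knockout and 192 and 198 in the Ythdf3 knockout (-0.69 ± 0.09, edgeR adjusted p = 4.37e-07), and wild type lay with the latter (208 and 205 CPM). Pgk1, a glycolytic kinase, was at 80.2 and 115 CPM, against 152 and 168, and 152 and 161 (-0.69 ± 0.11). It was the lone call among 20 tested glycolysis and hypoxia genes, and it was lost without Ythdf2 knockout library A (adjusted p = 0.233). Ccdc113, a cilium protein gene, was at 12.9 and 3.49 CPM, its 2 libraries apart from each other, against 23.4 to 30.6 in the other 4 (-1.74 ± 0.33, adjusted p = 0.630 without library B). Col1a1, a fibroblast collagen, was at 20.7 and 24.4 CPM, against 41.1 to 54.5 (-1.04 ± 0.21), and was the lone call among 6 tested feeder genes. The Col1a1 call was lost with DESeq2, without either Ythdf2 knockout library and without Ythdf3 knockout library B, and the Pgk1 and Ccdc113 calls were lost with DESeq2 too.

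Among higher genes, Klk11, a secreted serine protease of the kallikrein family, was at 47.8 and 54.7 CPM, against 18.9 and 29.5 in the Ythdf1 knockout and 15.1 and 14.6 in the Ythdf3 knockout (1.43 ± 0.21, edgeR adjusted p = 2.95e-06). Wild type had the level of the Ythdf2 knockout, at 47.7 and 54.4 CPM, and the other 4 libraries lay below both pairs. Bcl2l1, which encodes the survival protein BCL-XL, was at 234 and 262 CPM, against 172 to 189 in the other 4 (0.47 ± 0.08), and wild type lay with those (179 and 185 CPM). Mt2, a metallothionein that binds zinc, was at 588 and 670 CPM against 421 to 496 (0.47 ± 0.08). Nyap1, an adaptor of phosphoinositide kinase signalling, was at 60.8 and 55.9 CPM against 25.1 to 36.7 (0.93 ± 0.18). The Bcl2l1, Mt2 and Nyap1 calls were lost without Ythdf2 knockout library B, those of Bcl2l1 and Nyap1 also with DESeq2, and that of Nyap1 also without A.

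Signalling and pluripotency lists held few calls, and over all tested genes 0.427% were higher and 0.586% lower. Wnt genes had 2 of 13 higher, Sp5, a direct Wnt target (0.71 ± 0.14), and Cdx1, a caudal homeobox gene (0.41 ± 0.09). In the pairwise comparisons Sp5 was called only against the Ythdf3 knockout and Cdx1 only against the Ythdf1 knockout. The list median was 0.39 against -0.00 over all tested genes, with 8 differences positive and 5 negative. Sp5 was at 76.3 and 94.3 CPM in the Ythdf2 knockout and 43.9 to 58.9 in the other 4, and wild type was at 73.0 and 85.6 CPM. Krt7, a keratin of simple epithelia, was the lone call of 11 trophoblast genes, at 77.6 and 90.8 CPM against 33.2 to 65.6 (0.95 ± 0.16). Lefty1, a secreted Nodal inhibitor, was the lone call of 18 Nodal genes, at 16.8 and 9.31 CPM against 20.8 to 37.2 (-1.15 ± 0.28, edgeR adjusted p = 0.0374).

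Naive pluripotency genes had 3 calls among 30, where 1.01% of all tested genes were called, and all 3 were small. Tdh, a threonine dehydrogenase of mouse stem cells (0.23 ± 0.06), and Gbx2, a homeobox gene (0.47 ± 0.11), were higher. Fbxo15, an F-box gene of undifferentiated cells (-0.29 ± 0.07), was lower. Tdh lies in the stretch of chromosome 14 from 60 to 90 Mb, described below, where the median difference was 0.17. Fbxo15 was at 363 and 336 CPM in the Ythdf2 knockout and lower still, at 223 and 250 CPM, in wild type. Atf5, a stress-response factor, was the lone call of 19 ATF4 targets (0.47 ± 0.10), with overlapping groups. All calls of these 2 paragraphs were lost without Ythdf2 knockout library B and with DESeq2. The formative, Bmp, mesoderm and endoderm, primitive endoderm, neural, p53, immediate-early, interferon, retinoic acid, cholesterol, peroxisome, Y-linked and ribosomal protein lists held 0 calls in edgeR's test.

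Genes higher in the Ythdf2 knockout were unevenly spread over the genome. Chromosome 14 held 11 of them among 395 tested genes (2.78%), against 37 of 11092 on the other chromosomes (0.334%), and it held 5 of the 12 genes higher than in each paralogue. The following stretches were set after the values were seen. From 60 to 90 Mb (GRCm38), 80 of 108 genes had a positive difference, with a median of 0.17, and 9 were called higher and 1 lower. The window from 70 to 80 Mb had the largest median in size, 0.26, of the 10 Mb windows with 20 genes or more.

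Next to it, from 90 to 110 Mb, 21 of 22 genes had a negative difference, with a median of -0.50 and 3 lower calls. Within it the median was -0.14 over 6 genes from 90 to 100 Mb and -0.59 over 16 genes from 100 to 110 Mb. From 110 to 130 Mb 19 of 27 genes were negative too, with a median of -0.14 and 0 calls. The first 60 Mb had a median of 0.03. In the raised stretch the median deviation of the genes from their mean over 12 libraries was 0.19 and 0.12 in the Ythdf2 knockout libraries and -0.05 to 0.01 in the other 10. In the lowered stretch it was -0.23 and -0.39 in the Ythdf2 knockout, with the Mettl3 knockout as low (-0.40 and -0.51), wild type at 0.42 and 0.38 and the remaining 6 libraries at 0.04 to 0.22. DNA copy number was not measured, and its part in these differences was not tested. With library B of the Ythdf2 knockout left out, the medians were 0.21 and -0.42, with 4 higher calls in the raised and 0 lower calls in the lowered stretch. DESeq2 gave medians of 0.19 and -0.49 and 0 calls in either stretch.

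Tdrd3, a Tudor-domain reader of methylated arginine, was at 110 and 121 CPM in the Ythdf2 knockout, against 76.7 and 60.1 in the Ythdf1 knockout and 70.3 and 55.8 in the Ythdf3 knockout (0.83 ± 0.12, edgeR adjusted p = 1.09e-05). Tsc22d1, a leucine-zipper gene induced by TGF-beta, was at 387 and 376 CPM, against 272 to 291 in the other 4 (0.43 ± 0.06). Tpt1, the translationally controlled tumour protein (0.29 ± 0.06), Trim35, a RING ubiquitin ligase (0.66 ± 0.12), and Extl3, an enzyme of heparan sulfate synthesis (0.78 ± 0.15), completed the 5 that were higher than in each paralogue. Rgcc, a cell cycle regulator, was at 87.9 and 67.5 CPM against 31.1 to 47.8 (0.97 ± 0.15). All 6 lie in the raised stretch. All 6 lost their calls with DESeq2, Tpt1, Trim35 and Extl3 also without Ythdf2 knockout library B, and Rgcc also without A.

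In the lowered stretch Uchl3, a ubiquitin hydrolase, was at 184 and 169 CPM, against 239 to 252 in the other 4 (-0.48 ± 0.08, edgeR adjusted p = 0.000287). Ndfip2, an adaptor of NEDD4 ubiquitin ligases (-0.76 ± 0.15), and Spry2, an inhibitor of receptor tyrosine kinase signalling (-0.44 ± 0.10), were the other 2 lower calls. Fam124a, the lower gene within the raised stretch, was at 3.88 and 3.49 CPM, against 14.4 to 21.9 (-2.33 ± 0.44), and wild type lay between (6.31 and 5.35 CPM). Uchl3, Ndfip2, Spry2 and Fam124a were not called with DESeq2 or without Ythdf2 knockout library B.

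**Figure D4:**
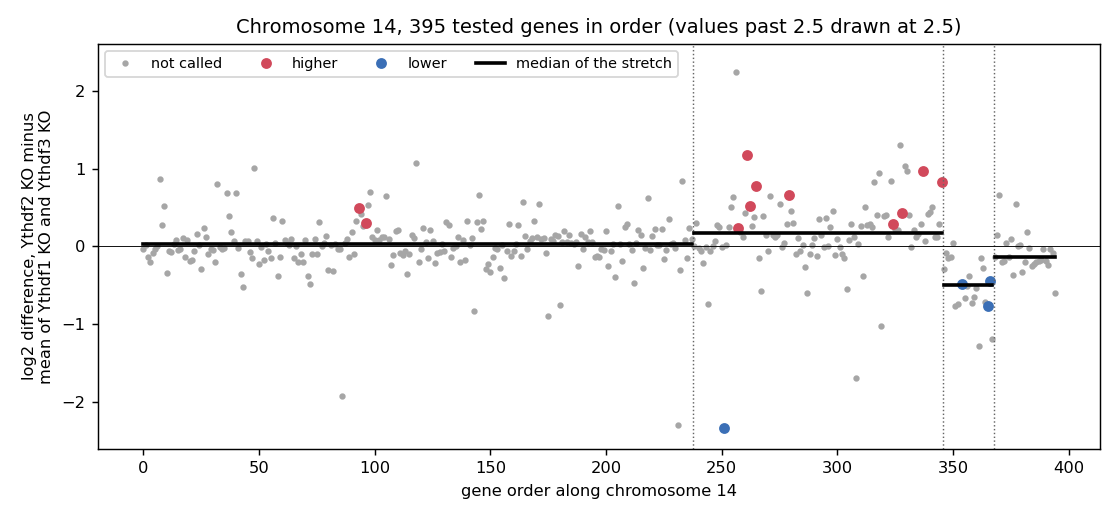
Log2 difference of the Ythdf2 knockout from the mean of the Ythdf1 and Ythdf3 knockouts for 395 tested genes in their order along chromosome 14. Dotted lines part the 4 stretches and black bars give their medians, 0.17 in the raised and -0.50 in the lowered stretch.

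Chromosome 13 stood apart for another reason. Its 444 tested genes had a median of -0.14 against the Ythdf1 knockout and 0.01 against the Ythdf3 knockout, and the Ythdf1 knockout exceeded the Ythdf3 knockout by a median of 0.14. The deviation lay in the Ythdf1 knockout libraries (0.14 and 0.10), whereas the Ythdf2 knockout libraries were at 0.01 and -0.04. The contrast carried a median of -0.05 on this chromosome. It held 7 lower calls (1.58% of its genes, against 0.586% of all tested genes), Tcstv1 and Spz1 among them. Of its genes 0 were called lower against each paralogue. Medians of the other 18 chromosomes with 20 tested genes or more, leaving out 14, ran from -0.02 to 0.03.

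**Figure D5:**
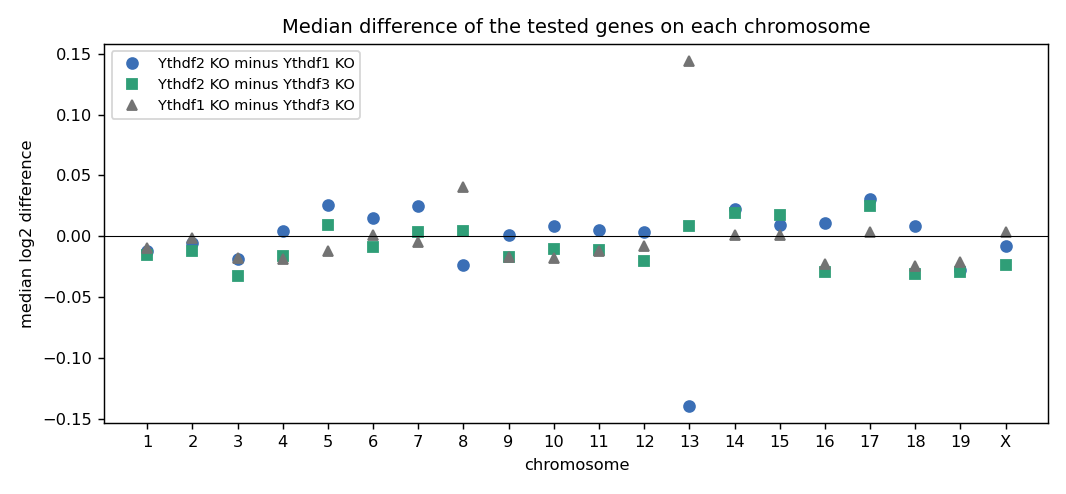
Median log2 difference of the tested genes on each chromosome for the 3 pairs of single knockouts. Chromosome 13 stands at -0.14 (blue) and 0.14 (grey) in the pairs that include the Ythdf1 knockout and at 0.01 (green) in the pair without it.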

How the data were processed

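The authors deposited whole-number counts per gene and library, and all tests started from them. Per the submitters' processing notes the tools were STAR 2.4.2a with cutadapt and CASAVA 1.8.2, then DESeq2, and the build was mm10. Not given in the sources used here are the counter, its strand setting and its annotation. The table lists genes reaching 6 counts in at least 1 library.

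All 12 stem cell libraries were fitted in 1 model with edgeR 4.0.16 and limma 3.58.1 in R 4.3.3 (TMM scaling, filterByExpr, robust quasi-likelihood F test), which kept 11951 of 14006 genes. The contrast, not the fit, left wild type out. Calls required an adjusted p under 0.05 (Benjamini-Hochberg, over all tested genes). The method was tested on simulated data drawn with the spread that edgeR had fitted here, so the test cannot show whether that spread is too small. There edgeR found 86 of 100 2-fold and 97 of 100 4-fold changes with 7 false calls. DESeq2 found 61 and 91 with 0 false calls. Differences are log2 ± standard error, taken as the size of the difference over the square root of the F statistic. Where libraries differ by less than counting error, this standard error can be too small and need not match the p-value. For Ythdf1 (0.12 ± 0.08), for example, the unadjusted quasi-likelihood p was 0.246. Of tested genes 96.1% had a position in GENCODE M21 (GRCm38). Alternatives were RLE scaling, no filter, a filter of 25 CPM in 2 libraries, a fit to the 6 single-knockout libraries, DESeq2 1.42.0, edgeR's likelihood-ratio test, a replicate block and leaving out each library.

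Genes named are the Ythdf genes and Mettl3, the 12 largest called rises and falls among genes averaging 4 or more in log2 CPM, without overlap, the 4 smallest p-values per list (29 lists) and the 8 smallest among genes called against each paralogue, without predicted, Y-linked and mitochondrial genes. Examples were picked from these. A further 14 genes were picked after their values were seen: Grb10, Mirg, Nelfa, Mt2, Bcl2l1 and 9 genes of chromosome 14. Copg2 was named as the neighbour of Mest. The contrast, the lists and the rule were chosen with earlier results of these data known.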

Additional observations from a re-analysis of the deposited data

Results flagged for a closer look

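Of the 70 genes lower in the Ythdf2 knockout, 17 also differed between the Ythdf1 and Ythdf3 knockouts, as did 0 of the 51 higher ones. For these 17 the gap to Ythdf2 depended on the comparator, and values are given for the 7 of them that the rule for named genes covers. The Ythdf1 knockout exceeded the Ythdf3 knockout in all 7 by edgeR's quasi-likelihood test (0.226% of tested genes were called higher in that comparison). On the log2 scale the excess was 1.39 ± 0.25 for Usp17la (adjusted p = 0.00229), 1.08 ± 0.15 for Usp17lb, 1.08 ± 0.15 for Usp17lc, 1.41 ± 0.23 for Usp17ld and 1.34 ± 0.13 for Usp17le. It was 1.35 ± 0.22 for Tcstv1 and 1.11 ± 0.23 for Chit1 (adjusted p = 0.0174). The Usp17l values rest on near-identical copies and are not independent of each other.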

How the results depend on the processing

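All 49 genes given values above that passed the test kept their direction under all 13 alternatives, and 12 were called in every alternative. Those 12 were Mest, Plagl1, Klk11, Myh9, Chit1, Hormad1, Usp17la, Usp17lb, Usp17lc, Usp17le, Zscan4a and Pramef25. With DESeq2 3 genes were higher and 17 lower in the contrast, 1 and 0 against each paralogue, and calls numbered 30 for Ythdf2 with Ythdf1, 2 for Ythdf2 with Ythdf3 and 1 for Ythdf1 with Ythdf3. Unadjusted p-values under 0.05 numbered 254 there. Leaving out each library gave 12 to 46 higher and 29 to 65 lower calls. Against each paralogue it gave 2 to 9 higher and 4 to 19 lower calls. The pairwise counts ran 68 to 129, 11 to 60 and 11 to 40 in the same order, and the lowest in the contrast came without Ythdf2 knockout library B. With 1 library left in a group its spread is taken from the others. Ythdf3, not called, ranged from -0.036 to 0.16 over the libraries left out, and was negative at -0.036 without Ythdf1 knockout library B, -0.01 without Ythdf2 knockout library A and -0.00 without Ythdf3 knockout library B.

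A replicate block on the shared letters gave 52 higher and 73 lower calls, and all 121 were kept. Deviations of same-letter libraries correlated at 0.144, 0.0624 and 0.0980, so the letters were not taken as pairs. Other scalings and filters gave 51 to 54 higher and 69 to 72 lower. Differences in genes under about 10 CPM rest on few counts, and depth limits what could be called there.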

Other observations

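Ythdf2 was highest in a group outside the contrast. The Mettl3 knockout libraries held 62.4 and 63.3 CPM, against 10.5 to 37.2 CPM in the other 10 stem cell libraries. Mettl3 itself was at 18.1 and 15.2 CPM there and at 122 to 147 CPM in the other 10.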
